A study of Mus musculus with 7 samples.

Results

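Integrins are cell-surface receptors made of an alpha and a beta chain, and the 10 subunit genes described here are those of integrins that hold leukocytes to other cells or cells to the surrounding matrix. They were taken by symbol from a gene-level table of 23358 entries, and each of the 10 symbols matched a single entry (Itga1, Itga4, Itga5, Itga6, Itga9, Itgal, Itgb1, Itgb2, Itgb5 and Itgb7). The table compares 4 Tgfbr2-deficient with 3 control libraries of brain cells labelled endothelial, from C57Bl6 mouse embryos at E14.5. Tgfbr2 encodes a receptor chain that transforming growth factor β (TGF-β) needs for signalling. Both groups were sorted on TdTomato, the red fluorescent protein that the Ai14 allele makes once Cre has recombined it, from 2000 to 5000 cells, and read as single ends of 50 bases. The Cre driver, the deleted exons, the genotype of the controls beyond that label, and any pooling of embryos are not stated in the labels used here. Abundance is given as 1 FPKM value per group (fragments per kilobase of exon, relative to all fragments mapped), which the authors had already combined over libraries. Values per library were not analysed here, so no spread between libraries and no depth could be computed. The error measure is therefore the q-value of the authors' deposited table, which rests on these libraries only. How it models their spread is not stated, and a difference that passes may be technical.

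An integrin's extracellular part binds a ligand, and its short tails bind talin and kindlin, which switch the receptor to its binding state and tie it to actin. The β1 chain pairs with many alpha chains, among them α1 (collagen), α4 (VCAM-1 and fibronectin), α5 (fibronectin), α6 (laminin) and α9 (tenascin-C and VCAM-1). The β2 chain occurs on leukocytes and pairs with αL to make LFA-1, a receptor for the ICAM proteins, or with αM to make the complement receptor of macrophages. The β7 chain pairs with α4 to bind MAdCAM-1 and with αE to bind E-cadherin, and β5 pairs with αv to bind vitronectin. In the embryonic brain, vessel walls use β1 integrins to hold the basement membrane, while microglia carry β2 integrins.

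The sorted cells were checked first against the targeted gene and against marker genes. Tgfbr2 stood at 65.4 FPKM in the Tgfbr2-deficient group and 91.1 FPKM in the control group, and the authors' deposited table gives it q = 0.0953, so it did not pass the threshold of 0.05. A gene-level value can include exons left after recombination, so it does not check the genotype labels. Markers of microglia and macrophages summed to 4730 FPKM in the Tgfbr2-deficient group and 10988 FPKM in the control group over 15 genes, of which 13 were lower and 0 higher. Endothelial markers summed to 351 FPKM in the Tgfbr2-deficient group and 70.4 FPKM in the control group over 12 genes, of which 11 were higher and 0 lower. Markers of neurons and neural progenitors summed to 231 FPKM in the Tgfbr2-deficient group and 96.8 FPKM in the control group, with 8 of 8 higher. The label of endothelial cells thus stands beside macrophage markers at higher levels than endothelial ones in both groups. In RNA of sorted populations, fewer cells of a type and less RNA per cell cannot be told apart. By the calling rule of the next paragraph, 23.9% of all 13356 tested genes were higher and 14.7% lower, a share to set beside each marker count. Markers counted in spite of a control level under 1 FPKM entered only through the Tgfbr2-deficient group, which sets their direction.

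Of the 10 integrin subunits, Itga1, Itga5 and Itgb7 rose in the Tgfbr2-deficient group, Itgb5 fell, and 6 did not pass. A gene was called when the authors had tested it, it reached 1 FPKM in at least 1 group and its q-value in the authors' deposited table was under 0.05. By this rule 38.6% of 13356 genes were called (23.9% higher and 14.7% lower), so 4 of 10 subunits called is near the share among all genes. All 10 subunits reached 1 FPKM, Itga1 through the Tgfbr2-deficient group alone. Their median log2 fold of FPKM + 1 was 0.010, beside −0.08 over all tested genes. When folds are centred on 80 genes of ribosomal proteins, of which 40 were lower and 0 higher, each log2 fold gains 0.54. The directions of the 4 called subunits stay as they are, but the fold of Itgb5 shrinks from −0.81 to −0.27.

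**Figure D1:**
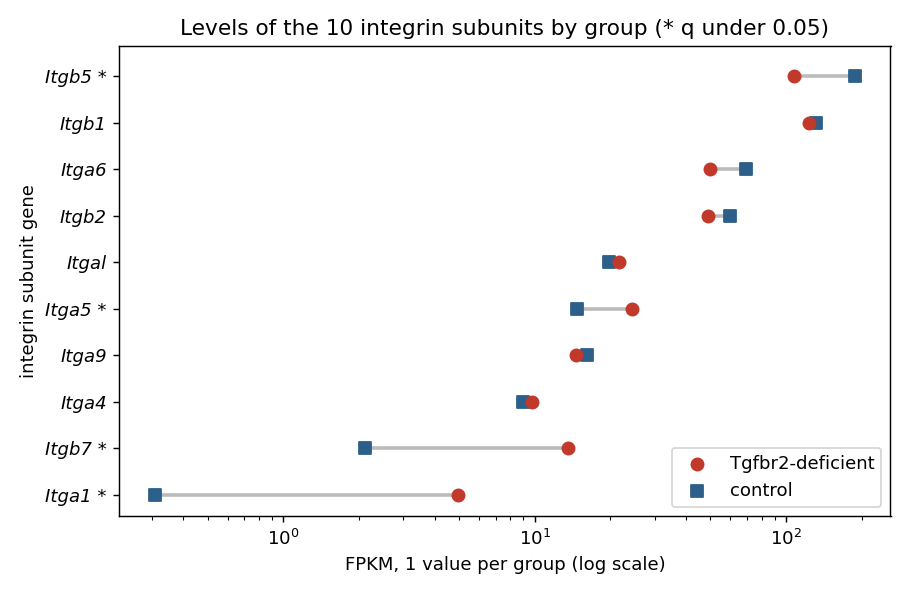
FPKM of the 10 integrin subunits on a log axis, with a circle for the Tgfbr2-deficient group and a square for the control group, 1 value per group, and an asterisk for a q-value under 0.05. The gap between groups is widest for Itga1 (4.96 FPKM in the Tgfbr2-deficient group and 0.307 FPKM in the control group) and Itgb7 (13.6 FPKM in the Tgfbr2-deficient group and 2.12 FPKM in the control group), while Itgb1 (124 FPKM in the Tgfbr2-deficient group and 131 FPKM in the control group) nearly coincides.

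Levels per kilobase spanned a wide range. In the Tgfbr2-deficient group the order of FPKM was Itgb1 (124), Itgb5 (107), Itga6 (49.9), Itgb2 (49.0), Itga5 (24.3), Itgal (21.5), Itga9 (14.6), Itgb7 (13.6), Itga4 (9.74) and Itga1 (4.96). In the control group it was Itgb5 (189), Itgb1 (131), Itga6 (69.2), Itgb2 (59.5), Itgal (19.8), Itga9 (16.2), Itga5 (14.8), Itga4 (8.99), Itgb7 (2.12) and Itga1 (0.307). Itgb1 and Itgb5 held the top places in both groups and exchanged them, and Itga5 stood at place 5 in the Tgfbr2-deficient group and 7 in the control group. Without values per library, it could not be tested which neighbours in these orders differ. Itgb1 in the Tgfbr2-deficient group was above 96.2% of all tested genes, whereas Itga1 was above 30.4% there and above 3.03% in the control group.

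Itga1 and Itga5, alpha chains of a collagen and a fibronectin receptor, rose, while Itga4, whose chain also binds fibronectin, did not pass. Itga1, the alpha chain of a collagen receptor found on mesenchymal cells and capillary endothelium, had 4.96 FPKM in the Tgfbr2-deficient group and 0.307 FPKM in the control group. The authors' deposited table lists q = 0.00165 beside a log2 fold of 4.01, a ratio of 16.2. On FPKM + 1 the log2 fold was 2.19, above that of 97.9% of tested genes. Its control level lies under 1 FPKM, so the size of the ratio rests on a low value. Itga5, the alpha chain of the main fibronectin receptor, had 24.3 FPKM in the Tgfbr2-deficient group and 14.8 FPKM in the control group, a ratio of 1.64. Its log2 fold in the authors' deposited table was 0.72 with q = 0.00551, and on FPKM + 1 its fold lay above that of 77.3% of tested genes. Itga1 was the less abundant of the pair in both groups. Beside them, pericyte and smooth muscle markers were higher in 7 of 8 genes, fibroblast and meningeal markers in 8 of 8 and endothelial markers in 11 of 12. Among all tested genes 23.9% were higher. Rgs5, Cspg4, Kcnj8 and Abcc9 of the pericyte list were under 1 FPKM in the control group, as were Flt1, Tek, Emcn, Erg and Clec14a of the endothelial list. These markers were counted only through the Tgfbr2-deficient group, which sets their direction. The part of these cell types in the values of Itga1 and Itga5 was not tested.

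Itga6 and Itga9, alpha chains that bind laminin and tenascin-C, did not pass. Itga6, which also marks endothelium and some stem cells, had 49.9 FPKM in the Tgfbr2-deficient group and 69.2 FPKM in the control group. The authors' deposited table lists for it p = 0.0333 and q = 0.0774 beside a log2 fold of −0.47. Itga9 had 14.6 FPKM in the Tgfbr2-deficient group and 16.2 FPKM in the control group, with a log2 fold of −0.15 and q = 0.608 in the authors' deposited table. Itga6 remained the most abundant of the 5 alpha chains, at 48.2% of their summed FPKM in the Tgfbr2-deficient group and 63.3% in the control group. Itga5 made up 23.4% in the Tgfbr2-deficient group and 13.5% in the control group, and Itga1 made up 4.80% in the Tgfbr2-deficient group and 0.281% in the control group.

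Itgb1, the shared beta chain of these receptors, had 124 FPKM in the Tgfbr2-deficient group and 131 FPKM in the control group. Its log2 fold in the authors' deposited table was −0.08 with q = 0.811. The 5 alpha chains Itga1, Itga4, Itga5, Itga6 and Itga9 summed to 103 FPKM in the Tgfbr2-deficient group and 109 FPKM in the control group. Itgb1 was therefore 1.19 times that sum in the Tgfbr2-deficient group and 1.20 times in the control group, while the make-up of the alpha chains differed. These ratios are of transcripts per length and carry no test.

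**Figure D2:**
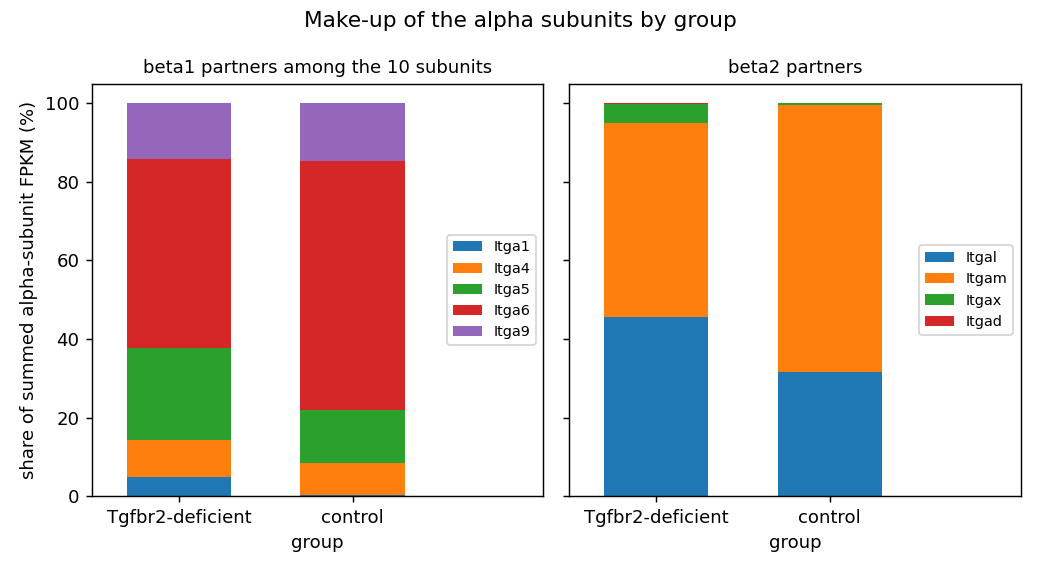
Share of the summed alpha-subunit FPKM (%) taken by each alpha chain, for the 5 β1 partners among the 10 subunits (left panel) and for the β2 partners (right panel), with the Tgfbr2-deficient group left of the control group in each panel. Itga6 took 48.2% in the Tgfbr2-deficient group and 63.3% in the control group, and Itgal took 45.6% of the β2 partners in the Tgfbr2-deficient group and 31.7% in the control group.

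The leukocyte chains Itgb2 and Itgal did not pass. Itgb2, the common beta chain of leukocyte integrins, had 49.0 FPKM in the Tgfbr2-deficient group and 59.5 FPKM in the control group, with a log2 fold of −0.28 and q = 0.29 in the authors' deposited table. Itgal, the alpha chain of LFA-1, had 21.5 FPKM in the Tgfbr2-deficient group and 19.8 FPKM in the control group, with a log2 fold of 0.12 and q = 0.674 in the authors' deposited table. Their partner Itgam, the alpha chain of the macrophage complement receptor, fell to 23.3 FPKM in the Tgfbr2-deficient group, against 42.3 FPKM in the control group (log2 fold −0.86, q = 0.00029 in the authors' deposited table). Itgax, the alpha chain also known as CD11c, rose to 2.30 FPKM in the Tgfbr2-deficient group, against 0.332 FPKM in the control group (log2 fold 2.79, q = 0.00029 in the authors' deposited table). Under 1 FPKM in the control group, Itgax was counted only through the Tgfbr2-deficient group, which sets its direction. The FPKM of Itgb2 was 1.04 times the sum of Itgal, Itgam, Itgax and Itgad in the Tgfbr2-deficient group and 0.954 times in the control group. Of that sum Itgal held 45.6% in the Tgfbr2-deficient group and 31.7% in the control group, and Itgam 49.4% in the Tgfbr2-deficient group and 67.8% in the control group.

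Beside these leukocyte chains, the macrophage markers had a median log2 fold of FPKM + 1 of −1.23, while that of Itgb2 was −0.28 and that of Itgal 0.12. The 2 most abundant macrophage markers were C1qb, a complement chain, at 1083 FPKM in the Tgfbr2-deficient group and 2432 FPKM in the control group, and Pf4, a chemokine of macrophages and platelets, at 747 FPKM in the Tgfbr2-deficient group and 1877 FPKM in the control group. Neutrophil markers summed to 54.0 FPKM in the Tgfbr2-deficient group and 9.68 FPKM in the control group. Of these 3 of 5 were higher and 0 lower, beside 23.9% higher among all tested genes. Camp, which was higher, and Elane, which did not pass, were under 1 FPKM in the control group. Both were counted only through the Tgfbr2-deficient group, which sets their direction. Lymphocyte markers summed to 16.1 FPKM in the Tgfbr2-deficient group and 0.924 FPKM in the control group, with 3 of 4 tested higher. All 4 were under 1 FPKM in the control group and were counted only through the Tgfbr2-deficient group. That sets their direction, so nothing is read from the count of lymphocyte markers. The 2 most abundant were Nkg7, a granule protein of natural killer and cytotoxic T cells, at 7.36 FPKM in the Tgfbr2-deficient group and 0.173 FPKM in the control group, and Il7r, the interleukin-7 receptor, at 3.45 FPKM in the Tgfbr2-deficient group and 0.171 FPKM in the control group. Both were higher, with q = 0.0358 for Nkg7 and 0.00029 for Il7r in the authors' deposited table. Of the T cell receptor complex, Cd3g had 2.41 FPKM in the Tgfbr2-deficient group and 0.0978 FPKM in the control group and did not pass (q = 0.0585 in the authors' deposited table), and Cd3e stood at 0.0354 FPKM in the Tgfbr2-deficient group and at 0 in the control group. The part of these cell types in the values of Itgb2 and Itgal was not tested.

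Itgb7 rose, while Itga4, its main partner, did not pass. Itgb7, the beta chain that directs lymphocytes and, in mice, mast cell precursors to the gut, had 13.6 FPKM in the Tgfbr2-deficient group and 2.12 FPKM in the control group, a ratio of 6.42. Its log2 fold in the authors' deposited table was 2.68 with q = 0.00029, the smallest q of the table, shared by 2357 tested genes. Itga4, which pairs with β1 or β7, had 9.74 FPKM in the Tgfbr2-deficient group and 8.99 FPKM in the control group, with a log2 fold of 0.12 and q = 0.701 in the authors' deposited table. The level of Itgb7 was thus above that of Itga4 in the Tgfbr2-deficient group and below it in the control group. Against the sum of Itga4 and Itgae it was 1.28 times in the Tgfbr2-deficient group and 0.232 times in the control group. Itgae, the other partner of β7, stood at 0.906 FPKM in the Tgfbr2-deficient group and 0.135 FPKM in the control group, under the 1 FPKM minimum.

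Most mast cell markers rose in the same comparison as Itgb7. They summed to 359 FPKM in the Tgfbr2-deficient group and 7.97 FPKM in the control group. Of 6 tested, 5 were higher and 0 lower, beside 23.9% higher among all tested genes. Hdc, which was higher, and Mcpt4, which did not pass, were under 1 FPKM in the control group. Both were counted only through the Tgfbr2-deficient group, which sets their direction. Cpa3, the mast cell carboxypeptidase, had 129 FPKM in the Tgfbr2-deficient group and 2.93 FPKM in the control group, and Cma1, a chymase, 78.3 FPKM in the Tgfbr2-deficient group and 1.18 FPKM in the control group. Fcer1a, the alpha chain of the IgE receptor, was near 0 at 0.192 FPKM in the Tgfbr2-deficient group and 0.0245 FPKM in the control group. The part of mast cells or lymphocytes in the value of Itgb7 was not tested.

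Itgb5, the beta chain of a vitronectin receptor, was the subunit that fell. It had 107 FPKM in the Tgfbr2-deficient group and 189 FPKM in the control group, a control level 1.76 times as high. The authors' deposited table lists q = 0.00283 beside a log2 fold of −0.82, and on FPKM + 1 its fold lay above that of 5.27% of tested genes. Itgav, the alpha chain that pairs with β5, had 14.2 FPKM in the Tgfbr2-deficient group and 10.2 FPKM in the control group and did not pass (log2 fold 0.48, q = 0.064 in the authors' deposited table). The FPKM of Itgb5 was 7.54 times that of Itgav in the Tgfbr2-deficient group and 18.5 times in the control group, ratios of transcript levels that were not tested. Macrophage markers, whose median log2 fold was −1.23, moved in the same direction as Itgb5, and their part in its value was not tested.

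**Figure D3:**
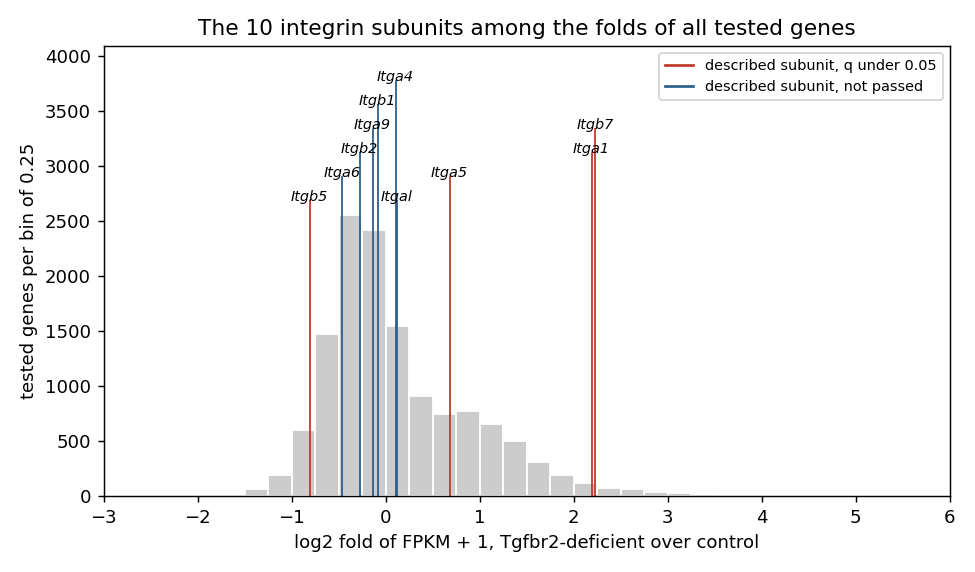
Number of tested genes per bin of log2 fold of FPKM + 1 (grey bars; 18 genes beyond −3 or 6 are not drawn), with a line at the fold of each of the 10 integrin subunits, red where the q-value is under 0.05 and blue where it is not. Itga1 (2.19) and Itgb7 (2.23) lie in the right tail and Itgb5 (−0.81) in the left, while 6 subunits lie in the bulk.

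The 10 genes are scattered over the genome. In GENCODE M21 on GRCm38 (mm10) all are protein-coding. Itga1 lies at chr13:114953096-115101964 on the minus strand, Itgb7 at chr15:102215995-102231944 and Itga5 at chr15:103344286-103366763, both on the minus strand, and Itgb5 at chr16:33829665-33949338 on the plus strand. Itga4 (chr2:79255426-79333123), Itga6 (chr2:71745616-71858416), Itga9 (chr9:118606690-118901003), Itgal (chr7:127296260-127335138), Itgb1 (chr8:128685654-128733200) and Itgb2 (chr10:77530252-77565708) are on the plus strand. Itga2, the alpha chain of another collagen receptor, is a neighbour of Itga1 on the same strand with a gap of 21.0 kb. It rose to 1.58 FPKM in the Tgfbr2-deficient group, against 0.0667 FPKM in the control group (log2 fold 4.57, q = 0.00029 in the authors' deposited table). Itga1 and Itga2 were both under 1 FPKM in the control group and counted only through the Tgfbr2-deficient group, which sets their direction. Itgb7 and Itga5, which also both rose, are 1112 kb apart. The libraries carry no strand, so reads of overlapping genes cannot be told apart. Pelo, a gene within Itga1 on the same strand with no shared exon, had 9.24 FPKM in the Tgfbr2-deficient group and 8.60 FPKM in the control group and did not pass (q = 0.877 in the authors' deposited table). Gm49395 shares exons with Itga1, and Cerkl, on the other strand, shares exons with Itga4, at 0.910 FPKM in the Tgfbr2-deficient group and 0.704 FPKM in the control group.

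The promoters of the 4 called subunits are shown so that the genes that changed can be compared at the start of transcription. Promoters of 7 of the 10 genes were matched in RefSeq on GRCm38.p6, and each run holds the 250 bases before that start, read 5′ to 3′ on the gene's own strand. Capitals mark matches on either strand to GGGCGG (the GC box of SP and KLF factors), GAGGAA (a core of ETS factors), CAGACA (a SMAD element) or TGANTCA (the AP-1 site), and no printed matches overlap. The windows are chr13:115101965-115102214 for Itga1, chr15:102231936-102232185 for Itgb7, chr15:103366792-103367041 for Itga5 and chr16:33829415-33829664 for Itgb5.
Itga1: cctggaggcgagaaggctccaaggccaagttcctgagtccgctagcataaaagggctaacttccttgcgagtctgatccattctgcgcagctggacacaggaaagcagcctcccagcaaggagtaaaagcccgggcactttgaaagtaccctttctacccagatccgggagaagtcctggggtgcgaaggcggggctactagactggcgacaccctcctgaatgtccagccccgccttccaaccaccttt
Itgb7: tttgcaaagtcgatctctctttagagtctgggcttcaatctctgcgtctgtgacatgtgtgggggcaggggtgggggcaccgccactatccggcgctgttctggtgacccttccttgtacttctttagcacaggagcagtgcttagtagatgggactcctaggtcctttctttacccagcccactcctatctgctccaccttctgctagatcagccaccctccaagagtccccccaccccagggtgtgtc
Itga5: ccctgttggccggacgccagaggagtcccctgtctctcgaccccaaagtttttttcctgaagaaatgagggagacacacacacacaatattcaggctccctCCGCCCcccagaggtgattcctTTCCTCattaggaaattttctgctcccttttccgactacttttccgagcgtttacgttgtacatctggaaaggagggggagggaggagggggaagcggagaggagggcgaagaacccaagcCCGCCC
Itgb5: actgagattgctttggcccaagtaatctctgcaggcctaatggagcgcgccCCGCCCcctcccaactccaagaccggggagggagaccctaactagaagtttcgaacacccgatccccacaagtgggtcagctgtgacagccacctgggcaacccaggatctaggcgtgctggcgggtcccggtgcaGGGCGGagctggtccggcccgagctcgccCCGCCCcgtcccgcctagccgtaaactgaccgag
The windows of Itga1 and Itgb7 held 0 matches to any of these motifs, and their GC content was 57.6% and 56.0%. Of the subunits that did not pass, the windows of Itga4 and Itgb1 held some matches. The window matched for Itga9 also held 0, but it lies inside the gene, at chr9:118711442-118711691. The gene itself starts at chr9:118606690, so this window belongs to an internal start and is not compared with the others. Itga5 held 2 GC boxes and 1 GAGGAA, and Itgb5 held 3 GC boxes at a GC content of 65.2%. Among the first promoters listed for 27025 genes, 32.9% held GGGCGG, 23.1% GAGGAA, 17.1% CAGACA and 6.87% TGANTCA, with a median GC content of 52.0%. A match is a run of letters and not a measured site, and a window without one says only that these letters are not in it.

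Of 17 further alpha and beta chains, 11 reached 1 FPKM, of which 8 were higher, 1 was lower and 2 did not pass, beside 38.6% called among all tested genes. Of these 11, 9 were under 1 FPKM in the control group and reached the minimum only through the Tgfbr2-deficient group, among them all 8 that were higher. Such a gene had to be higher in the Tgfbr2-deficient group to be counted, so nothing is read from this count. The other two, Itgam and Itgav, reached the minimum in both groups, and neither was higher at q under 0.05. The largest ratios among these 11 were those of the platelet receptor for fibrinogen, αIIbβ3. Its alpha chain Itga2b had 42.2 FPKM in the Tgfbr2-deficient group and 0.925 FPKM in the control group (log2 fold 5.51, q = 0.00029 in the authors' deposited table). Its beta chain Itgb3 had 20.1 FPKM in the Tgfbr2-deficient group and 0.439 FPKM in the control group (log2 fold 5.52, q = 0.00029 in the authors' deposited table). Megakaryocyte and platelet markers, a list that includes Itga2b, summed to 122 FPKM in the Tgfbr2-deficient group and 3.47 FPKM in the control group. Of these 6 of 7 were higher, but only Gp1bb (1.18 FPKM) reached 1 FPKM in the control group. The other markers were counted only through the Tgfbr2-deficient group, so nothing is read from their count. The part of megakaryocytes and platelets in the values of Itga2b and Itgb3 was not tested. Itgb4, a laminin receptor chain of epithelia, had 1.16 FPKM in the Tgfbr2-deficient group and 0.251 FPKM in the control group and did not pass (q = 0.318 in the authors' deposited table). Itgb8, a TGF-β-activating chain, was under the 1 FPKM minimum at 0.797 FPKM in the Tgfbr2-deficient group and 0.265 FPKM in the control group (q = 0.00732 in the authors' deposited table). At a minimum of 5 FPKM, 2 of 4 were higher and 1 lower.

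**Figure D4:**
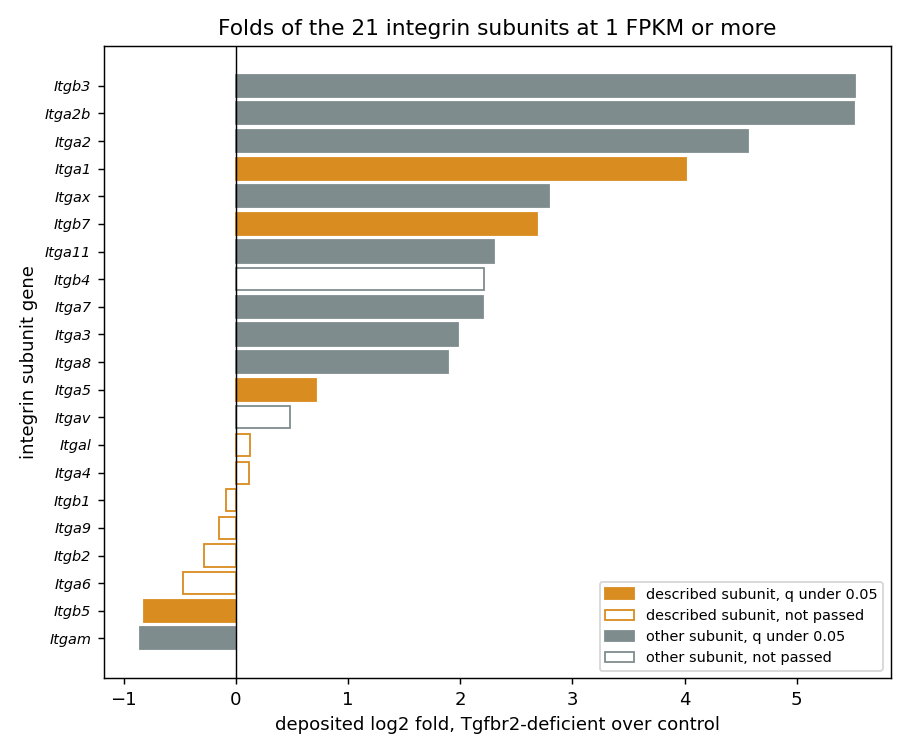
Log2 fold of Tgfbr2-deficient over control FPKM in the authors' deposited table for the 21 integrin subunits at 1 FPKM or more in a group, with orange bars for the 10 described subunits, grey bars for the others and open bars where the q-value is not under 0.05. Bars run from −0.86 (Itgam) to 5.52 (Itgb3), and the 6 open orange bars lie around 0.

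Of 31 ligand genes 30 were tested at 1 FPKM or more, of which 25 were higher and 1 lower, beside 38.6% called among all tested genes, and their median log2 fold of FPKM + 1 was 1.92. Of the 25 that were higher, 8 were under 1 FPKM in the control group and were counted only through the Tgfbr2-deficient group, which sets their direction, while 22 of the 30 reached the minimum in both groups. The type IV collagen chain Col4a1, a basement membrane ligand of α1β1, had 164 FPKM in the Tgfbr2-deficient group and 10.96 FPKM in the control group, and its partner chain Col4a2 had 85.8 FPKM in the Tgfbr2-deficient group and 7.14 FPKM in the control group. Col1a1, of fibrillar type I collagen, had 404 FPKM in the Tgfbr2-deficient group and 44.1 FPKM in the control group, and Lama4, a laminin chain of vessel walls, had 21.7 FPKM in the Tgfbr2-deficient group and 1.64 FPKM in the control group. All 4 genes have q = 0.00029 in the authors' deposited table.

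Each of the described receptors could be set beside its known ligand. Fn1, the fibronectin bound by α5β1, rose to 63.3 FPKM in the Tgfbr2-deficient group, against 15.8 FPKM in the control group, and Vtn, the vitronectin bound by αvβ5, rose to 27.2 FPKM in the Tgfbr2-deficient group, against 3.90 FPKM in the control group. Vcam1, bound by α4β1 and α9β1, rose to 16.4 FPKM in the Tgfbr2-deficient group, against 3.22 FPKM in the control group. Madcam1, bound by α4β7, rose to 4.36 FPKM in the Tgfbr2-deficient group, against 0.205 FPKM in the control group, and Tnc, the tenascin bound by α9β1, to 10.4 FPKM in the Tgfbr2-deficient group, against 1.28 FPKM in the control group. For LFA-1, Icam2 rose to 27.7 FPKM in the Tgfbr2-deficient group, against 10.8 FPKM in the control group, whereas Icam1 had 29.2 FPKM in the Tgfbr2-deficient group and 24.7 FPKM in the control group and did not pass (q = 0.385 in the authors' deposited table). The largest q among the 6 ligand genes that rose is 0.000787, for Madcam1, in the authors' deposited table. Vtn thus rose while Itgb5 fell, and Vcam1 and Tnc rose while Itga4 and Itga9 did not pass. Madcam1 was under 1 FPKM in the control group and was counted only through the Tgfbr2-deficient group. Its direction was set by that and is not read against Itga4.

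The ligand gene that fell was Tgfb1, whose latency peptide αv integrins bind, at 120 FPKM in the Tgfbr2-deficient group and 217 FPKM in the control group (q = 0.000544 in the authors' deposited table). Spp1, the osteopontin bound by αvβ5 and α9β1, had 88.0 FPKM in the Tgfbr2-deficient group and 116 FPKM in the control group, and Emilin1, an α4β1 and α9β1 ligand, had 57.1 FPKM in the Tgfbr2-deficient group and 60.5 FPKM in the control group. Neither passed, with q = 0.15 for Spp1 and 0.794 for Emilin1 in the authors' deposited table. Of the cell types that make matrix, fibroblast and meningeal markers, a list that holds Col1a1 and Col1a2, summed to 1046 FPKM in the Tgfbr2-deficient group and 126 FPKM in the control group, with 8 of 8 higher. Pericyte and smooth muscle markers summed to 103 FPKM in the Tgfbr2-deficient group and 13.4 FPKM in the control group, with 7 of 8 higher and 0 lower. Of these, Rgs5, Cspg4, Kcnj8 and Abcc9 were under 1 FPKM in the control group. They were counted only through the Tgfbr2-deficient group, which sets their direction. Among all tested genes 23.9% were higher, and the part of these cell types in the ligand values was not tested.

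Genes of the cytoplasmic partners of integrins, a list of tail-binding proteins, adaptors and activators, were called in both directions. Of 34 listed genes 33 were tested at 1 FPKM or more, of which 10 were higher, 8 lower and 15 did not pass, beside 38.6% called among all tested genes, with a median log2 fold of FPKM + 1 of −0.15, which becomes 0.39 when folds are centred on ribosomal protein genes. Lims2, among the 10 that were higher, was under 1 FPKM in the control group and was counted only through the Tgfbr2-deficient group, which sets its direction. A pair of kindlins changed in opposite directions. Fermt2, the kindlin of most adherent cells, had 10.5 FPKM in the Tgfbr2-deficient group and 1.36 FPKM in the control group (log2 fold 2.95, q = 0.00029 in the authors' deposited table). Fermt3, the kindlin of blood cells, had 129 FPKM in the Tgfbr2-deficient group and 238 FPKM in the control group (log2 fold −0.88, q = 0.00102 in the authors' deposited table).

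Among the other partners named, Bcar1, Parva and Src rose, and Rassf5, Apbb1ip and Tln2 fell. Bcar1, the scaffold p130Cas, had 20.3 FPKM in the Tgfbr2-deficient group and 4.21 FPKM in the control group, Parva, an actin-binding parvin, had 12.2 FPKM in the Tgfbr2-deficient group and 2.61 FPKM in the control group, and the kinase gene Src had 14.0 FPKM in the Tgfbr2-deficient group and 4.68 FPKM in the control group. Rassf5, the Rap effector RAPL that activates LFA-1, had 15.1 FPKM in the Tgfbr2-deficient group and 26.5 FPKM in the control group, and Apbb1ip, the Rap effector RIAM that recruits talin, had 15.9 FPKM in the Tgfbr2-deficient group and 26.1 FPKM in the control group. Tln2, a talin, had 12.4 FPKM in the Tgfbr2-deficient group and 31.6 FPKM in the control group. The largest q among these 6 genes is 0.00428, for Apbb1ip, in the authors' deposited table. Ilk, the integrin-linked pseudokinase, at 126 FPKM in the Tgfbr2-deficient group and 167 FPKM in the control group, and Zyx, an adhesion adaptor, at 128 FPKM in the Tgfbr2-deficient group and 153 FPKM in the control group, did not pass (q = 0.231 and 0.4 in the authors' deposited table). Macrophage markers were lower and endothelial, pericyte and fibroblast markers higher in the same comparison, and their part in these values was not tested.

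**Figure D5:**
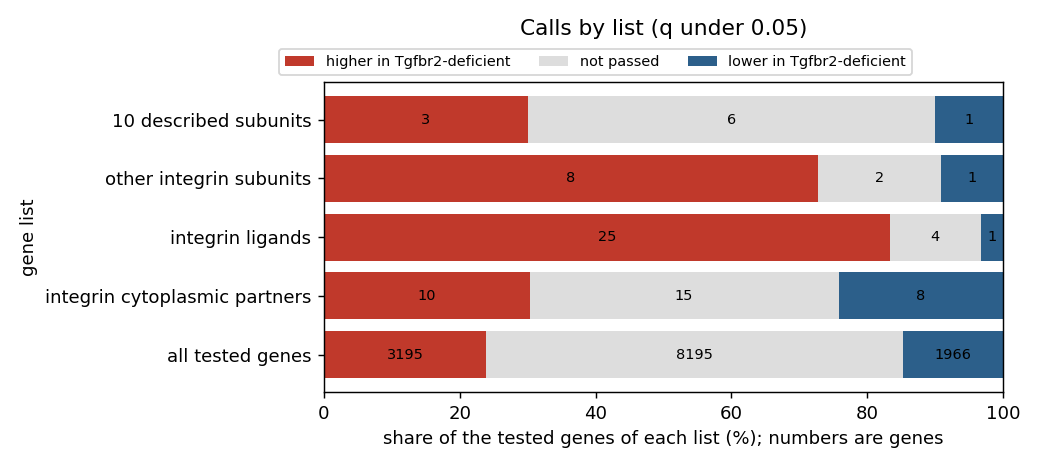
Share (%) of the tested genes of each list that were higher (red), not passed (grey) or lower (blue) in the Tgfbr2-deficient group at a q-value under 0.05, with the number of genes in each bar. The 10 described subunits (3 higher, 1 lower) lie near all tested genes (3195 higher and 1966 lower of 13356), and 25 of 30 ligand genes were higher. All 8 higher calls among the other subunits, and 8 of those among the ligands, were of genes under 1 FPKM in the control group. The same holds for 1 higher call among the 10 described subunits, 1 among the cytoplasmic partners and 1256 among all tested genes.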

How the data were processed

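RNA of sorted cells was amplified with SMART-Seq v4 and tagmented with Nextera XT, per the labels, and these kits do not mark strand. The submitters' processing notes name mm10, TopHat2, Cufflinks 2.2.1 and Cuffdiff, and the annotation, normalization and settings are not stated there. Per the file headers, the deposited table gives 1 FPKM value per gene and group, the log2 fold, a test score, a p-value and a q-value. It held 0 columns of values per library, so depth is unknown and no interval was set. The deposited score shared the sign of the fold in all 13994 genes where both could be compared. No model was fitted here. Calls used the deposited q-value under 0.05 and a minimum of 1 FPKM, and medians a pseudocount of 1 FPKM (Python 3.11.15, pandas 2.3.3), with code tested on simulated data. Of 171 listed symbols 170 matched.

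The members and lists were chosen with earlier results of these data known. Named are the 10 subunits, up to 4 genes per direction and list with the smallest p-value (ties by size of fold), the 2 most abundant that did not pass and the 2 most abundant markers of each cell type, of which those beside a subunit's result are printed. Other genes were chosen after their values were seen, among them known ligands and partners. With 2 values per gene, no likeness of pattern was computed. The alternatives were other minimums, thresholds, pseudocounts, centrings and a recomputed adjustment.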

Additional observations from a re-analysis of the deposited data

How the results depend on the processing

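No paired analysis was possible because the table holds 1 value per group, and leaving out single libraries was not run for the same reason. Of 76 list counts and medians recomputed under 10 alternatives, 62 stayed within 1.5 times the count or within the median absolute deviation of the list's genes. At a minimum of 5 FPKM, other integrin subunits had 2 higher calls and all genes 1643, and Itga1 was no longer counted. At q under 0.01, cytoplasmic partners had 5 lower calls and all genes 1026. With a log2 fold of at least 1 required, lower calls came to 0 for the 10 subunits, 0 for the other subunits, 0 for ligands, 1 for cytoplasmic partners and 368 for all genes, while the higher calls of the 10 subunits came to 2, without Itga5. The median log2 fold of the other subunits, 9 of which were counted only through the Tgfbr2-deficient group, was 1.93 with 0.1 FPKM added and 2.21 with no pseudocount. Centring on ribosomal protein genes gave medians of 0.55 for the 10 subunits, 1.61 for the other subunits and 0.39 for cytoplasmic partners, which reversed, and it reversed 4 subunits that had not passed, Itga6 (0.075), Itga9 (0.40), Itgb1 (0.46) and Itgb2 (0.26). The other 36 of 40 recomputed folds of single subunits kept their sign.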
